A study of Mus musculus with 12 samples.

Results

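The comparison set cells labelled Socs1-/- (Socs1 KO) against cells labelled Ing4-/- (Ing4 KO), both derivatives of RAW264.7, an immortal macrophage-like cell line of the mouse. It took in 8 of the 12 libraries of the series: 2 of untreated Socs1 KO cells, 2 of Socs1 KO cells given lipopolysaccharide (LPS) at 100 ng/ml for 3 h, 2 of untreated Ing4 KO cells and 2 of Ing4 KO cells given the same LPS. The libraries were chosen by genotype label alone. The other 4 are of wild-type (WT) cells, 2 untreated and 2 given LPS, and were not in the main fit. They show on which side of a difference the WT level lay. They also served to choose a set of LPS-response genes, to scale the printed expression values, for a count of replicate splits and in some alternative fits. No label says how the knockouts were made, whether each is 1 clone, or whether a group's libraries are from cultures grown apart. The p-values therefore refer to the spread of these libraries, which may be technical.

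Socs1 is a cytokine-induced protein that binds and blocks JAK kinases and, through its SOCS box, recruits an E3 ubiquitin ligase. In macrophages it is known as a brake on interferon signalling and on the response to LPS. Ing4 is a reader of histone methylation that works in the HBO1 histone acetyltransferase complex and has been linked to restraint of NF-kB, the factor behind many inflammatory genes. LPS, from the outer membrane of Gram-negative bacteria, acts through a Toll-like receptor (TLR) to switch on NF-kB targets first and, through secreted interferon, interferon-stimulated genes after them.

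The transcripts of the targeted genes do not check the genotype labels. Ing4 had 19 and 28 counts in untreated and 14 and 3 counts in LPS-treated Socs1 KO libraries, against 6 and 29 counts in untreated and 6 and 10 counts in LPS-treated Ing4 KO libraries. Ing4 overlaps another annotated gene, and its WT libraries held 2 to 10 counts, so its counts lie near the lower limit of measurement. What part the overlap has in these low counts was not tested. Socs1 had 7 and 7 counts in untreated and 67 and 127 counts in LPS-treated Socs1 KO libraries, against 12 and 11 counts in untreated and 185 and 148 counts in LPS-treated Ing4 KO libraries. Neither gene was called, with a log2 change (Socs1 KO over Ing4 KO) of 0.22 ± 0.60 (SE) for Ing4 and -0.73 ± 0.33 for Socs1. Whole-gene counts do not see a small deletion or insertion, and the knockouts are named here as the labels give them.

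The libraries held 17250815 to 24377950 counts. The first LPS-treated Socs1 KO library stood apart and is given on its own throughout. On the first principal component of the 8 libraries, which held 58.1% of the variance, it lay at -12.6, between the untreated libraries at -62.3 to -45.8 and the other LPS-treated libraries at 70.1 to 80.9. The 50 genes that rose most with LPS in WT cells had a median log2 CPM (counts per 1000000 counts of the library, with TMM factors from all 12 libraries) of 2.48 in it and 7.26 in the second LPS-treated Socs1 KO library, against 6.64 and 6.83 in the LPS-treated Ing4 KO libraries. The 8 macrophage markers checked (Csf1r, Adgre1, Cd68, Itgam, Lyz2, Spi1, Tyrobp and Mpeg1) lay between 17.6 and 17000 CPM in all 8 libraries. Summed markers of T, B and NK cells reached at most 10.9 CPM in Socs1 KO and 10.1 CPM in Ing4 KO libraries, and those of fibroblasts, epithelium and erythroid cells at most 1.04 CPM in Socs1 KO and 1.00 CPM in Ing4 KO libraries. Those of dendritic cells summed to 97.9 and 109 CPM in untreated and 1210 (first) and 632 CPM (second) in LPS-treated Socs1 KO libraries. In Ing4 KO libraries they summed to 116 and 103 CPM untreated and 655 and 1130 CPM after LPS. Those of neutrophils summed to 8.19 to 19.6 CPM in Socs1 KO and 5.70 to 11.1 CPM in Ing4 KO libraries. Of these lists 8 dendritic cell genes, 2 neutrophil genes and 1 gene of each of the others were tested, and none was called.

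Over both treatments 40 of 12503 tested genes (0.32%) were called at an adjusted p of 0.05 (edgeR quasi-likelihood test, treatment as covariate, Benjamini-Hochberg over all tested genes). Of these, 17 were higher and 23 were lower in Socs1 KO. At an unadjusted p under 0.05 there were 899 genes (7.19%), and the median log2 change of all genes was 0.02. In 518 genes (4.14%) both Socs1 KO libraries lay above both Ing4 KO libraries in each treatment, and in 561 genes (4.49%) both Ing4 KO libraries lay above both Socs1 KO libraries, 8.63% of all genes together. All 40 called genes belonged to these.

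The call count treats the 4 libraries of a knockout as independent, while libraries of the same number resembled each other. The difference between the first and second library of a knockout correlated across genes between untreated and LPS-treated pairs at 0.573 in Socs1 KO and 0.617 in Ing4 KO. With a random effect for genotype and replicate number (limma, within-pair correlation 0.537), 11 genes were called, all among the 40: Sema5a, Aldh1l1, Ank2, Aplp1, Mkx, Pltp and the long non-coding Gm35066, lower in Socs1 KO, and Tanc1, Tmem98, Gpr179 and Lamb2, higher in Socs1 KO. With the untreated and LPS-treated library of each number summed, which leaves 2 samples against 2, the calls were Sema5a and Tanc1. The count was 15 without the first and 29 without the second untreated Socs1 KO library, and 8 without either untreated Ing4 KO library. It was 17 without the first and 16 without the second LPS-treated Ing4 KO library. Without the second LPS-treated Socs1 KO library it was 28, and without the first 52, of which 38 were among the 40.

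**Figure D1:**
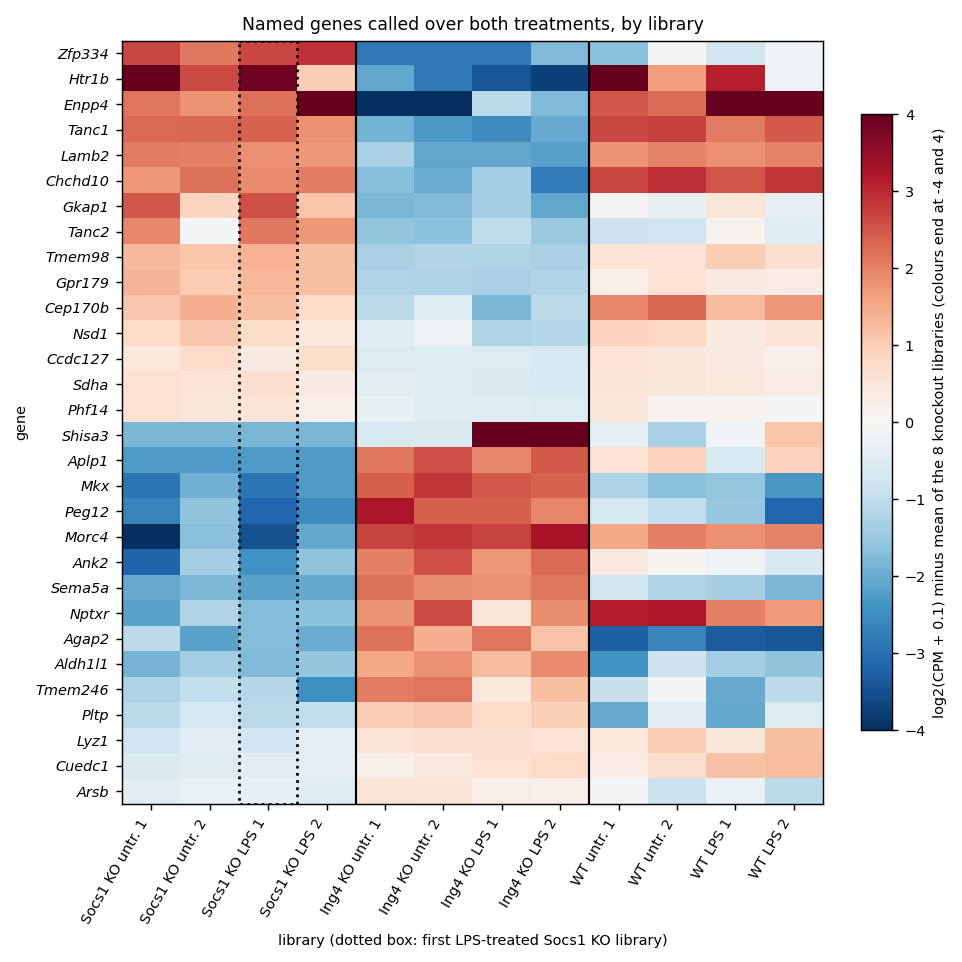
Expression of the 30 genes that the naming rule took from the 40 called genes (rows) in each of the 12 libraries (columns), as log2(CPM + 0.1) minus the gene's mean over the 8 knockout libraries. In each of the 30 genes all 4 Socs1 KO libraries lie on one side of the Ing4 KO libraries of the same treatment, because the naming rule required it. This holds for the boxed first LPS-treated Socs1 KO library too. Most genes have their WT level nearer to Socs1 KO.

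Sema5a, Tanc1, Tmem98 and Gpr179 were called within each treatment as well. Sema5a (chr15:32244810-32696341, GRCm38, plus strand) encodes a transmembrane semaphorin, a guidance cue for growing axons. It had 5.98 and 6.92 CPM in untreated Socs1 KO libraries and 5.50 (first) and 5.85 CPM (second) after LPS, against 112 and 89.7 CPM in untreated and 86.1 and 106 CPM in LPS-treated Ing4 KO libraries. The knockouts do not overlap in either treatment, and the log2 change was -4.02 ± 0.14 (SE, adjusted p = 6.04e-05). WT libraries held 6.79 to 14.5 CPM, so the high level was that of Ing4 KO. Tanc1 (chr2:59612042-59846149, plus strand), a scaffold protein of synapses, was the mirror image. It had 41.5 and 43.0 CPM in untreated Socs1 KO libraries and 44.8 (first) and 30.6 CPM (second) after LPS, against 2.27 and 1.66 CPM in untreated and 1.38 and 2.05 CPM in LPS-treated Ing4 KO libraries. Its log2 change was 4.45 ± 0.22, and WT libraries held 36.3 to 58.4 CPM, at the Socs1 KO level.

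Sema5a and Tanc1 were called in all 19 alternative analyses of this comparison at an adjusted p of 0.05, and their RefSeq promoters (GRCm38.p6, 250 bases before to 50 after the start) are printed for that reason, with CG in capitals. The Tanc1 window holds 36 CG, a number reached by 6.23% of the 32851 windows of this length, and the Sema5a window holds 23, reached by 21.5%.
Tanc1, chr2:59611792-59612091, plus strand: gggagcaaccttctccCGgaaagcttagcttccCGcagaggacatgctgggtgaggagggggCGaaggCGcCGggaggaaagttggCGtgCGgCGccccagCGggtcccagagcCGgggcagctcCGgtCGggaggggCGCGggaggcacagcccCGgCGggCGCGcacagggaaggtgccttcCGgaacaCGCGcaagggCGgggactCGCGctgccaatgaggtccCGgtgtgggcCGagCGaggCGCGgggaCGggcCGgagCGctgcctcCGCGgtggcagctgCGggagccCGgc
Sema5a, chr15:32244563-32244862, plus strand: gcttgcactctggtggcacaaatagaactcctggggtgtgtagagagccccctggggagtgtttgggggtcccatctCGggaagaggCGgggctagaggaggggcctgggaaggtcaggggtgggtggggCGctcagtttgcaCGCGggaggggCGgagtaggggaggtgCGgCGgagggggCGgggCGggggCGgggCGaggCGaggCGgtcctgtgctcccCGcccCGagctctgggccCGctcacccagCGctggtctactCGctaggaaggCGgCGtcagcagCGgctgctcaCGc
Windows were found for 32 of the 40 called genes. Their median was 21 CG, being 24 in the 15 genes higher and 16 in the 17 lower in Socs1 KO, beside a median of 7 over all windows. Called genes had to be expressed, which the full set of windows did not, and no methylation was measured.

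The other genes called in every treatment lie on chromosome 11. Tmem98 (chr11:80810175-80822033, plus strand), a small transmembrane protein known from eye growth, had 31.0 and 27.3 CPM in untreated Socs1 KO libraries and 32.8 (first) and 28.8 CPM (second) after LPS, against 5.06 and 5.53 CPM in untreated and 5.37 and 5.09 CPM in LPS-treated Ing4 KO libraries. Gpr179 (chr11:97332109-97352077, minus strand), an orphan receptor of retinal bipolar cells, had 37.3 and 29.1 CPM in untreated Socs1 KO libraries and 36.0 (first) and 33.0 CPM (second) after LPS, against 6.19 and 6.08 CPM in untreated and 5.80 and 6.20 CPM in LPS-treated Ing4 KO libraries. Both genes had similar values in all 4 libraries of a knockout, the first LPS-treated Socs1 KO library included. Their WT libraries lay between, at 18.3 to 24.8 CPM for Tmem98 and 16.8 to 21.8 CPM for Gpr179. The log2 changes were 2.52 ± 0.12 for Tmem98 and 2.49 ± 0.13 for Gpr179 (SE, adjusted p = 0.000253 and 0.000293 by the edgeR test).

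Of the 17 genes higher in Socs1 KO, 14 had their WT mean nearer to Socs1 KO, so that Ing4 KO lay farther from WT. Lamb2, the beta-2 chain of laminin in basement membranes, had 4.85 and 4.73 CPM in untreated Socs1 KO libraries and 4.15 (first) and 3.88 CPM (second) after LPS, against 0.392 and 0.184 CPM in untreated and 0.190 and 0.166 CPM in LPS-treated Ing4 KO libraries. The 4 WT libraries held 4.08 to 4.66 CPM, inside or beside the Socs1 KO range, and the log2 change was 4.22 ± 0.31. Chchd10, a protein of the mitochondrial intermembrane space, had 4.77 and 6.62 CPM in untreated Socs1 KO libraries and 5.42 (first) and 5.96 CPM (second) after LPS, against 0.349 and 0.276 CPM in untreated and 0.475 and 0.111 CPM in LPS-treated Ing4 KO libraries. WT libraries held still more, 8.38 to 11.0 CPM. Cep170b, related to a centrosomal protein, averaged 8.38 CPM in Socs1 KO, 1.80 CPM in Ing4 KO and 13.9 CPM in WT over 4 libraries each, with a log2 change of 2.26 ± 0.28. Nsd1, a histone methyltransferase, averaged 7.37 CPM in Socs1 KO, 2.58 CPM in Ing4 KO and 6.89 CPM in WT, with a log2 change of 1.56 ± 0.21. Phf14, a PHD finger protein of chromatin, averaged 36.5 CPM in Socs1 KO, 19.2 CPM in Ing4 KO and 29.4 CPM in WT, with a log2 change of 0.93 ± 0.12.

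Htr1b and Enpp4, a receptor and an enzyme of the cell surface, were near absent in Ing4 KO and varied widely within the other genotypes. Htr1b, a serotonin receptor that couples to inhibitory G proteins, had 48.9 and 12.9 CPM in untreated Socs1 KO libraries and 30.8 (first) and 4.05 CPM (second) after LPS, against 0.392 and 0.184 CPM in untreated and 0.0950 and 0.0553 CPM in LPS-treated Ing4 KO libraries. Enpp4, a surface pyrophosphatase, had 11.4 and 8.96 CPM in untreated Socs1 KO libraries and 11.9 (first) and 88.0 CPM (second) after LPS, against 0.0436 and 0.0461 CPM in untreated and 1.14 and 0.664 CPM in LPS-treated Ing4 KO libraries. In WT cells Enpp4 had 14.6 and 12.3 CPM untreated and 77.6 and 118 CPM after LPS, so that the first LPS-treated Socs1 KO library held its untreated level. The log2 changes were 7.05 ± 0.92 for Htr1b and 6.22 ± 0.78 for Enpp4, with adjusted p = 0.030 and 0.027 by the edgeR test, and adjusted p = 0.551 and 0.998 with the random effect.

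In Zfp334, Gkap1 and Tanc2 the WT mean lay between the knockouts and was nearer to Ing4 KO on the log2 scale. All Ing4 KO libraries lay below all WT libraries in each of these genes. In Gkap1 WT was almost midway, with a log2 ratio to WT of 1.93 for Socs1 KO and -1.73 for Ing4 KO. Zfp334, a zinc finger protein, had 4.46 and 2.99 CPM in untreated Socs1 KO libraries and 4.52 (first) and 5.28 CPM (second) after LPS, against 0, 0, 0 and 0.111 CPM in the 4 Ing4 KO libraries. That is 368 counts in Socs1 KO against 2 in Ing4 KO, a ratio of 190 with a 95% interval of 52.3 to 1580 that covers counting error only, and WT libraries held 0.132 to 0.588 CPM. Gkap1, an anchoring protein for cGMP-dependent kinase, had 8.67 and 2.74 CPM in untreated Socs1 KO libraries and 9.12 (first) and 3.32 CPM (second) after LPS, against 0.277 to 0.523 CPM in Ing4 KO libraries. Tanc2, the paralog of Tanc1, had 12.0 and 2.99 CPM in untreated Socs1 KO libraries and 13.8 (first) and 10.5 CPM (second) after LPS, against 0.921 to 1.47 CPM in Ing4 KO libraries. The log2 changes were 3.96 ± 0.53 for Gkap1 and 3.13 ± 0.44 for Tanc2, and the low Socs1 KO value of Tanc2, 2.99 CPM, lay within the WT range of 1.71 to 3.44 CPM. Gkap1 had 1.17 to 2.09 CPM in WT, and its first Socs1 KO libraries lay above its second in both treatments.

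Among the 23 genes lower in Socs1 KO, 17 had their WT mean nearer to Socs1 KO, so that Ing4 KO lay farther from WT. Peg12, an imprinted gene expressed from the paternal copy, had 0.0433 and 0.199 CPM in untreated Socs1 KO libraries and 0 (first) and 0.0562 CPM (second) after LPS, against 8.59 and 4.70 CPM in untreated and 4.66 and 3.38 CPM in LPS-treated Ing4 KO libraries. Mkx, a homeobox factor of tendon, had 3 counts over the Socs1 KO libraries against 358 over the Ing4 KO libraries, a ratio of 115 in favour of Ing4 KO with a 95% counting interval of 39.2 to 562. Agap2, a GTPase-activating protein for Arf, had 1.17 and 0.498 CPM in untreated Socs1 KO libraries and 0.692 (first) and 0.562 CPM (second) after LPS, against 11.8 and 7.0 CPM in untreated and 11.5 and 5.75 CPM in LPS-treated Ing4 KO libraries. WT libraries held at most 0.483 CPM of Peg12, 0.219 CPM of Mkx and 0.317 CPM of Agap2. Aldh1l1, a folate enzyme, averaged 1.35 CPM in Socs1 KO, 14 CPM in Ing4 KO and 1.56 CPM in WT, with a log2 change of -3.37 ± 0.23. Ank2, which encodes ankyrin-B, a membrane-cytoskeleton adaptor, averaged 1.35 CPM in Socs1 KO, 25.9 CPM in Ing4 KO and 5.48 CPM in WT, with a log2 change of -4.26 ± 0.45. Tmem246, a Golgi enzyme that modifies GPI anchors, averaged 0.476 CPM in Socs1 KO, 4.41 CPM in Ing4 KO and 0.723 CPM in WT.

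Shisa3 and Aplp1 had no count in any Socs1 KO library. Shisa3, known in the frog as an inhibitor of Wnt and FGF receptor maturation, had 0.131 and 0.138 CPM in untreated and 6.89 and 6.53 CPM in LPS-treated Ing4 KO libraries, and WT libraries held 0.0453 to 0.659 CPM. Against a floor of 3 counts over the 4 Socs1 KO libraries it was at least 86.7-fold lower in Socs1 KO. It was the called gene whose gap lay mainly after LPS. With no count in Socs1 KO, its LPS response there could not be estimated. The difference of LPS responses was -5.56 with an SE of 5310, so the test of that difference could not decide. Aplp1, a relative of the amyloid precursor protein, had 2.00 and 2.76 CPM in untreated and 1.76 and 2.55 CPM in LPS-treated Ing4 KO libraries and was at least 60.9-fold lower in Socs1 KO on the same floor.

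In 6 of the genes lower in Socs1 KO the WT mean was nearer to Ing4 KO. Morc4, an ATPase of the MORC family on the X chromosome, had 0 and 0.547 CPM in untreated Socs1 KO libraries and 0.0815 (first) and 0.393 CPM (second) after LPS, against 13.3 and 14.7 CPM in untreated and 13.3 and 19.8 CPM in LPS-treated Ing4 KO libraries. WT libraries lay below Ing4 KO at 5.79 to 8.10 CPM, and the log2 change was -5.93 ± 0.73. Nptxr, the neuronal pentraxin receptor, averaged 0.227 CPM in Socs1 KO, 3.61 CPM in Ing4 KO and 6.37 CPM in WT. Lyz1, a lysozyme and the called member of the macrophage identity list, had 3100 and 3980 CPM in untreated Socs1 KO libraries and 3140 (first) and 4150 CPM (second) after LPS, against 7640 and 8460 CPM in untreated and 8310 and 8070 CPM in LPS-treated Ing4 KO libraries. WT libraries held 7250 to 12300 CPM, and the log2 change was -1.17 ± 0.17, with an adjusted p of 0.047 that became 0.0999 without the first LPS-treated Socs1 KO library. Its neighbour and close paralog Lyz2, the main macrophage lysozyme, was not called, with 7660 to 9700 CPM in Socs1 KO against 8530 to 17000 CPM in Ing4 KO libraries, and reads of such paralogs may be split unevenly. Cuedc1, a protein with a ubiquitin-binding CUE domain, averaged 8.44 CPM in Socs1 KO, 16.8 CPM in Ing4 KO and 22 CPM in WT.

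Pltp and Arsb, of lipid transport and the lysosome, were also lower in Socs1 KO, with WT nearer to Socs1 KO. Pltp, the phospholipid transfer protein and a target of the sterol receptor LXR, had 30.6 and 39.6 CPM in untreated Socs1 KO libraries and 30.3 (first) and 32.5 CPM (second) after LPS, against 129 and 136 CPM in untreated and 110 and 125 CPM in LPS-treated Ing4 KO libraries. WT libraries held 15.5 to 47.8 CPM, around the Socs1 KO range, and the log2 change was -1.90 ± 0.12. Of the 19 tested genes on the list of LXR targets and lipid handling Pltp was the only one called, and the list's median log2 change was -0.24, beside 0.02 over all genes. Arsb, a lysosomal sulfatase, had 201 to 237 CPM in Socs1 KO against 326 to 413 CPM in Ing4 KO libraries and 134 to 272 CPM in WT, with a log2 change of -0.76 ± 0.11.

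Over the 40 called genes the mean WT level was nearer to Socs1 KO in 31 and nearer to Ing4 KO in 9 on the log2 scale, with 0.1 CPM added. Of the 31, 14 were genes higher in Socs1 KO and 17 were genes lower in Socs1 KO. Of the 9, 3 were higher and 6 lower in Socs1 KO. In 25 genes the range of the 4 WT libraries overlapped that of Socs1 KO only, in 5 that of Ing4 KO only, and in 10 neither. These are descriptions of genes chosen for a gap between the knockouts, and no test against WT was made for them here.

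The first LPS-treated Socs1 KO library was in the fit that called the 40 genes, and the test favours genes whose libraries of 1 group lie close together, so its values in them are a description. In all 40 it lay on the same side of the mean of the LPS-treated Ing4 KO libraries as the call. The first and second LPS-treated Socs1 KO libraries differed by a median of 0.295 in absolute log2 CPM over the 40 genes and by 0.43 over all 12503 genes. The difference was above 1 in 6 of the 40, among them Htr1b at 2.90 (first over second), Enpp4 at -2.88 and Gkap1 at 1.43. Without this library 38 of the 40 were called, the others being Lyz1 and Tanc2 with adjusted p = 0.0999 and 0.0637 (edgeR).

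**Figure D2:**
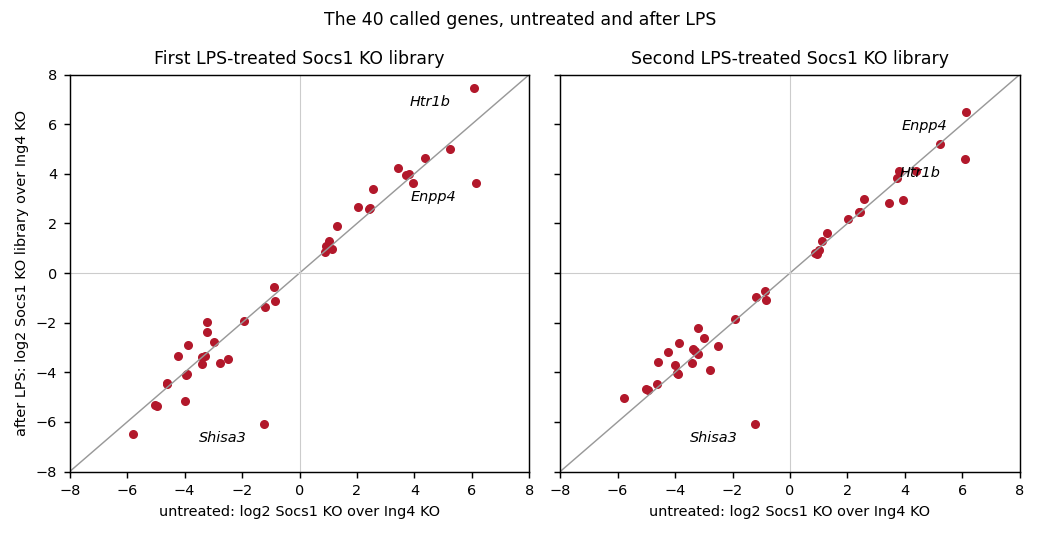
Log2 ratio of Socs1 KO over Ing4 KO for the 40 called genes, computed from CPM + 0.1, in untreated cells (horizontal) and after LPS (vertical), with the first LPS-treated Socs1 KO library on the left and the second on the right. Most points lie near the line of equal change; Shisa3 lies far below it in both panels, Enpp4 below it on the left and near it on the right, and Htr1b above it on the left and below it on the right.

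In untreated cells alone 4 genes (0.032%) were called, and in LPS-treated cells alone 4 genes (0.032%). They were Sema5a, Tanc1, Tmem98 and Gpr179 in each. Unadjusted p fell under 0.05 for 287 genes untreated and 585 genes after LPS. The untreated count was 0 without any 1 of the 4 untreated libraries, 1 without either LPS-treated Ing4 KO library and 6 without the first LPS-treated Socs1 KO library. The LPS count was 0 without either LPS-treated Ing4 KO library, 1 without any 1 of the untreated libraries and 589 without the second LPS-treated Socs1 KO library, where the first stands alone for its group. Without the first, 3 genes were called after LPS, among them Enpp4 with a log2 change of 6.57 ± 0.35 (adjusted p = 0.00772, edgeR), while Tmem98 and Gpr179 missed the threshold with adjusted p = 0.0525 and 0.0659.

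For the LPS response itself, no gene was called as different between the knockouts. The difference of LPS responses gave 0 called genes (0%) by edgeR, with 76 genes at an unadjusted p under 0.05, and 0 by DESeq2 and limma-voom. With the second LPS-treated Socs1 KO library left out, the weakly responding first library alone stood for the group. Most differences called then were negative (response of Socs1 KO minus that of Ing4 KO). A negative difference is a smaller rise or a larger fall with LPS, and these were not told apart. With the first library left out, 0 were called. The second library is then 1 sample against 2, assumed to vary as the other groups do.

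Single LPS-response genes show how far apart the LPS-treated Socs1 KO libraries were. Isg15, a ubiquitin-like interferon-induced protein, had 1.08 and 2.79 CPM in untreated Socs1 KO libraries and 31.4 (first) and 497 CPM (second) after LPS, against 3.49 and 0.967 CPM in untreated and 396 and 376 CPM in LPS-treated Ing4 KO libraries. Irf7, the interferon-induced transcription factor that amplifies interferon output, had 6.96 (first) and 316 CPM (second) in LPS-treated Socs1 KO libraries, against 255 and 174 CPM in LPS-treated Ing4 KO libraries. The first library lay at an untreated level in Irf7 and above it in Isg15, while the second lay above both LPS-treated Ing4 KO libraries in both genes.

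In Tnf and Il1b, inflammatory cytokines and NF-kB targets, the first library lay above the untreated and below the other LPS-treated libraries. Tnf had 41.2 and 61.7 CPM in untreated Socs1 KO libraries and 1380 (first) and 10500 CPM (second) after LPS, against 59.2 and 44.2 CPM in untreated and 7960 and 3700 CPM in LPS-treated Ing4 KO libraries. Il1b had 196 (first) and 3860 CPM (second) in LPS-treated Socs1 KO libraries, against 2390 and 2180 CPM in LPS-treated Ing4 KO libraries. The interferon-inducible chemokine Cxcl10 had 478 (first) and 2100 CPM (second) in LPS-treated Socs1 KO libraries, against 2110 and 1210 CPM in LPS-treated Ing4 KO libraries. Over both treatments none of these 5 genes was called, with log2 changes from -0.40 ± 0.80 (Isg15) to 0.22 ± 0.56 (Cxcl10). Without the first library the LPS-treated log2 changes were 0.35 ± 0.65 for Isg15, 0.54 ± 0.83 for Irf7, 0.84 ± 0.53 for Tnf and 0.74 ± 0.62 for Il1b, none called.

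**Figure D3:**
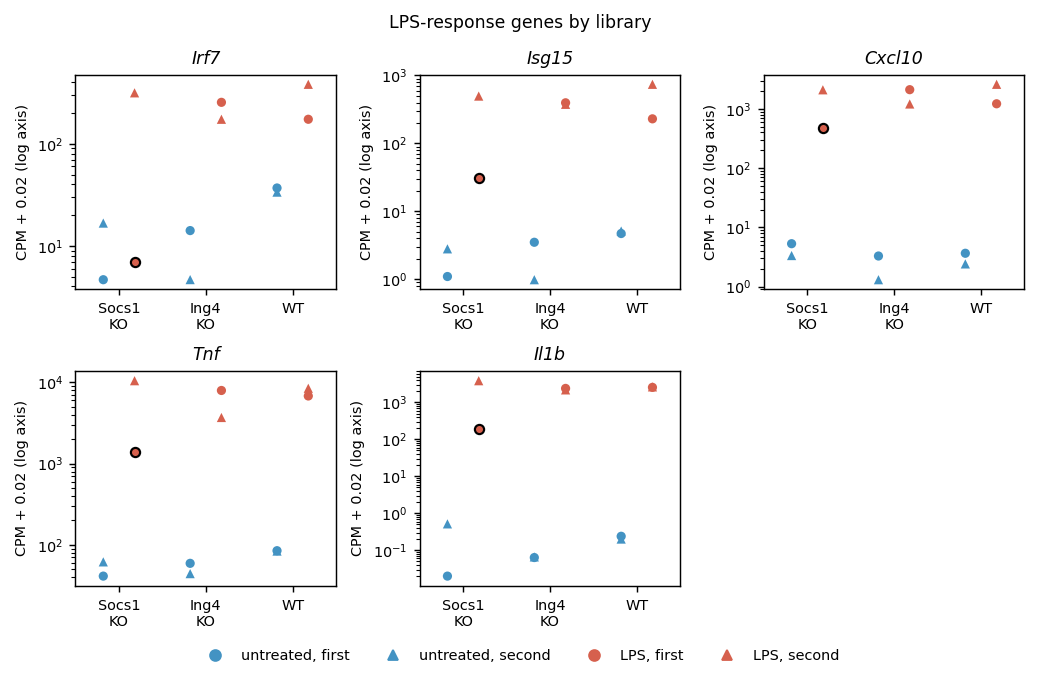
CPM of 5 LPS-response genes in each library on a log axis (0.02 CPM added), by genotype; circles are first and triangles second libraries, blue untreated and red LPS-treated. The black-ringed first LPS-treated Socs1 KO library lies below every other LPS-treated library in all 5 genes, and at the untreated level in Irf7.

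As a list, none of the 57 tested type I interferon-stimulated genes was called over both treatments. Their median log2 change was -0.22 over all 8 libraries and 0.19 without the first LPS-treated Socs1 KO library. The list's median log2 CPM was 2.98 and 4.19 in untreated Socs1 KO libraries and 3.61 (first) and 8.05 (second) after LPS, against 4.0 and 3.48 in untreated and 7.68 and 7.49 in LPS-treated Ing4 KO libraries. The same turn of sign was seen in the 35 NF-kB inflammatory targets, at -0.14 with and 0.17 without that library, and in the 17 chemokines, at -0.36 with and 0.07 without it, with none called in either list. The 21 interferon-gamma-inducible GTPases and targets had a median of -0.57 with and -0.02 without it, also with none called. Cell cycle and DNA replication genes had a median of 0.26 with and -0.02 without it over 50 genes, none called. The macrophage identity list of 33 genes had a median of -0.40 with and -0.41 without that library.

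When the first LPS-treated Socs1 KO library was left out, 14 genes outside the 40 were called, and a few are named after their values were seen. Ifi47, an interferon-inducible GTPase, had 5.03 and 5.67 CPM in untreated Socs1 KO libraries and 4.24 (first) and 55.4 CPM (second) after LPS, against 11.5 and 11.1 CPM in untreated and 85.8 and 90.5 CPM in LPS-treated Ing4 KO libraries. It was the 1 interferon list member called, lower in Socs1 KO with a log2 change of -0.91 ± 0.13 (adjusted p = 0.0391, edgeR). Icosl, the ligand of a T cell costimulator, had 0.694 and 2.19 CPM in untreated Socs1 KO libraries and 7.86 (first) and 55.8 CPM (second) after LPS, against 0.0436 and 0.0461 CPM in untreated and 2.57 and 1.94 CPM in LPS-treated Ing4 KO libraries. Its log2 change without the first library was 4.65 ± 0.42, with Socs1 KO libraries above Ing4 KO libraries in each treatment. Chka, choline kinase alpha, had 16.9 and 19.6 CPM in untreated Socs1 KO libraries and 78.5 (first) and 14 CPM (second) after LPS, against 88.4 and 81.5 CPM in untreated and 62.1 and 40.3 CPM in LPS-treated Ing4 KO libraries, so that here the first library lay within the range of the 4 Ing4 KO libraries.

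Of 30 gene lists with 710 tested genes, 4 held a called gene, 1 each. Besides Lyz1 and Pltp these were Sdha among the 33 tested subunits of oxidative phosphorylation and Lamb2 among the 32 tested genes of extracellular matrix, adhesion and proteases. These 4 of 710 stand beside 0.32% of all genes. The ING family and HBO1 complex (16 tested), the SOCS box E3 ligase partners (13 tested) and the JAK-STAT and SOCS family list (42 tested) held no called gene, with medians of 0.12, -0.01 and -0.11, and TLR pathway components (35 tested) had a median of -0.09 with no called gene.

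Some called genes were neighbours. Of the 40 called genes 7 lay on chromosome 13, which held 460 of the 12503 tested genes, and 3 of them were next to each other. Sdha (chr13:74322254-74350280, GRCm38, minus strand) encodes the flavoprotein subunit of succinate dehydrogenase, which works in both the citric acid cycle and respiration. It had 372 and 358 CPM in untreated Socs1 KO libraries and 391 (first) and 308 CPM (second) after LPS, against 185 and 175 CPM in untreated and 164 and 158 CPM in LPS-treated Ing4 KO libraries. Ccdc127 (chr13:74350309-74365783, plus strand), a coiled-coil protein, had 47.6 and 58.7 CPM in untreated Socs1 KO libraries and 45.7 (first) and 57.0 CPM (second) after LPS, against 24.1 and 24.6 CPM in untreated and 24.3 and 22.7 CPM in LPS-treated Ing4 KO libraries. Pdcd6, a calcium-binding protein on the other side of Sdha, averaged 90.5 CPM in Socs1 KO and 50.4 CPM in Ing4 KO.

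All 3 were higher in Socs1 KO, with log2 changes of 1.08 ± 0.11 for Sdha, 1.14 ± 0.12 for Ccdc127 and 0.85 ± 0.10 for Pdcd6 (SE, adjusted p = 0.0135, 0.014 and 0.022 by edgeR). WT averaged 331 CPM for Sdha, 47.3 CPM for Ccdc127 and 101 CPM for Pdcd6, near Socs1 KO in each. With the random effect the adjusted p was 0.0598 for Sdha, 0.069 for Ccdc127 and 0.107 for Pdcd6. Lrrc14b, which lies within Ccdc127 on the opposite strand so that their counts may share reads, was hardly expressed and had a log2 change of 1.74 ± 0.69 that was not called. Outside these the log2 change was 0.20 ± 0.37 for Ahrr and -0.05 ± 0.10 for Exoc3 on the side of Pdcd6, and -0.04 ± 0.31 for Zfp72 and -0.22 ± 0.26 for Zfp825 on the side of Ccdc127. No other tested subunit of oxidative phosphorylation was called, and that list's median was 0.09.

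**Figure D4:**
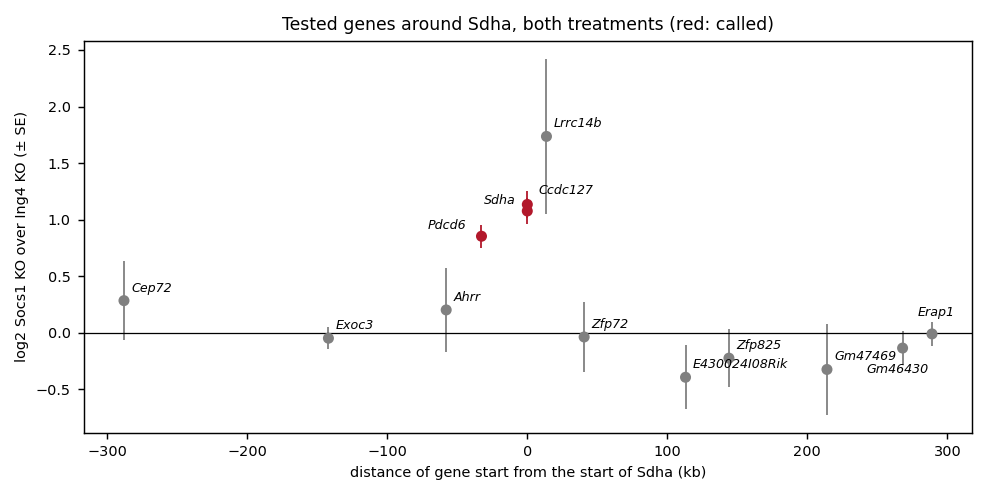
Log2 change of Socs1 KO over Ing4 KO over both treatments, with its SE, for tested genes by the distance of their start from that of Sdha in kb. Pdcd6, Sdha and Ccdc127 (red, called) lie between 0.85 and 1.14 and Lrrc14b, with a wide error, at 1.74, while genes farther out on both sides lie between -0.39 and 0.29.

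Sdha and Ccdc127 are transcribed away from each other from starts 77 bases apart in RefSeq (GRCm38.p6), so their promoter windows share 176 bases. Both are printed 5′ to 3′ on the strand of their own gene, with the shared bases in capitals, because these neighbours moved together.
Sdha, chr13:74350191-74350490, minus strand: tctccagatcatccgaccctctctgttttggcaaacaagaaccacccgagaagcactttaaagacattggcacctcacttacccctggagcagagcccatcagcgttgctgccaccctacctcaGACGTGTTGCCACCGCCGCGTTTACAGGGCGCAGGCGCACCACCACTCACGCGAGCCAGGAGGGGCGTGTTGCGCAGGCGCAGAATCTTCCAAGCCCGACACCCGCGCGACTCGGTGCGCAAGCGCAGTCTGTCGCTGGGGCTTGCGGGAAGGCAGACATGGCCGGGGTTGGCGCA
Ccdc127, chr13:74350067-74350366, plus strand: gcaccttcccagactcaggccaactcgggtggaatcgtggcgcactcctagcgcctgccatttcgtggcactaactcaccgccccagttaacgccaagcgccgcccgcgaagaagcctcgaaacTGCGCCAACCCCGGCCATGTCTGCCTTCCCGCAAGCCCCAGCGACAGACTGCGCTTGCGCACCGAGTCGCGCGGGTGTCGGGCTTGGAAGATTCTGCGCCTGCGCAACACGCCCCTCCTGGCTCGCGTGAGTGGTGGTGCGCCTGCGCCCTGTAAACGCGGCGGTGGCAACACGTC
The shared stretch is the same DNA read on opposite strands.

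Neighbours of called genes were looked at in the same way. A neighbour is here the nearest tested gene on either side, at any distance. The distance ran from overlap to 3150 kb, for Ube3a beside Peg12. Of 75 uncalled neighbours, 46 had the sign of the called gene. In 13 (17.3%) the unadjusted p (edgeR) was under 0.05, beside 7.19% of all genes, and 10 of these 13 had that sign. Among them were Snhg18, a non-coding RNA gene beside Sema5a, with a log2 change of -3.96 ± 0.76, and Myo1d, a myosin next to Tmem98, with 2.65 ± 0.39, neither called (adjusted p = 0.135 and 0.0559, edgeR). Cd200r2, which overlaps the called Gm17928, had a log2 change of -3.59 ± 0.54 with an adjusted p of 0.0594, and without the first LPS-treated Socs1 KO library it was called. Counts of overlapping genes may hold each other's reads. On chromosome 9 a run of 4 neighbours chosen after their values were seen, Acy1, Abhd14a, Abhd14b and Pcbp4, had log2 changes of 1.30 to 2.85 with none called (adjusted p = 0.0634 to 0.285). Acy1, an aminoacylase, had 17.7 to 27.6 CPM in Socs1 KO against 4.53 to 10.6 CPM in Ing4 KO libraries, and its libraries do not overlap.

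Other genes separated the first from the second library of 1 knockout. Chosen after their values were seen, 88 tested genes (0.704%) differed at least 8-fold between the first and second Socs1 KO library in the same direction in both treatments, 75 of them higher in the second. In Ing4 KO there were 11 such genes (0.088%) and in WT 1 (0.008%). None of them was among the 40 called, which make up 0.32% of all tested genes. A split of this size widens the spread within a knockout, so a call was unlikely from the start.

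Among the genes that split Socs1 KO were H2-Aa and H2-Eb1. H2-Aa, a chain of MHC class II, had 0.0433 (first) and 10.7 CPM (second) in untreated and 0.0815 (first) and 15.3 CPM (second) in LPS-treated Socs1 KO libraries, against at most 0.0475 CPM in any Ing4 KO library and 0.272 to 0.537 CPM in WT. H2-Eb1 followed the same split, at 0 and 7.51 CPM untreated and 0.0407 and 8.49 CPM after LPS in Socs1 KO, against at most 0.0553 CPM in Ing4 KO. Ciita, the master activator of these genes, had 0.0433 and 1.74 CPM in untreated and 0.122 and 1.12 CPM in LPS-treated Socs1 KO libraries, against at most 0.0553 CPM in Ing4 KO. Neither H2-Aa nor H2-Eb1 was called (adjusted p = 0.432 and 0.505, edgeR), and the high values are those of the second Socs1 KO library of each treatment. H2-Ab1, also of MHC class II and not called, had 0.0867 (first) and 6.47 CPM (second) in untreated Socs1 KO libraries. After LPS it had 0.122 (first) and 8.66 CPM (second), against at most 0.262 CPM in Ing4 KO. The list of MHC class II antigen presentation held 14 tested genes and none called. Its median log2 CPM was 3.30 (first) and 3.20 (second) in untreated and 3.07 (first) and 3.30 (second) in LPS-treated Socs1 KO libraries. A median at that level cannot show a split in a few low genes. Its median log2 change was 0.65 with and 0.44 without the first LPS-treated Socs1 KO library.

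Other genes split Socs1 KO in either direction. Gpr34, a lysophospholipid receptor of macrophages and microglia, had 0.520 (first) and 208 CPM (second) in untreated and 0.326 (first) and 73.2 CPM (second) in LPS-treated Socs1 KO libraries, against 171 to 284 CPM in Ing4 KO. Cyfip2, an actin regulator, had 2.38 (first) and 154 CPM (second) in untreated and 3.58 (first) and 205 CPM (second) in LPS-treated Socs1 KO libraries, against 64.1 to 73.4 CPM in Ing4 KO. Pxdn, a peroxidase of the extracellular matrix, went the other way, at 127 (first) and 5.92 CPM (second) untreated and 134 (first) and 5.06 CPM (second) after LPS, against 49.4 to 144 CPM in Ing4 KO. In these genes the first LPS-treated library lay on the side of the first untreated library of its genotype, which the choice of genes required.

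Of the 11 genes that split Ing4 KO, 10 were higher in the second libraries and 1, Ighm, in the first. C1qc, a chain of the first complement component, had 0.523 (first) and 13.3 CPM (second) in untreated and 0.950 (first) and 12.3 CPM (second) in LPS-treated Ing4 KO libraries. In Socs1 KO it was lower and parted the same way, at 0.0433 (first) and 1.24 CPM (second) untreated and 0.0407 (first) and 0.787 CPM (second) after LPS. C1qa and C1qb, the partner chains on chromosome 4, had log2 changes of -3.35 ± 1.26 and -3.29 ± 1.37 and the same split. Ms4a7, a macrophage membrane protein, had 0.610 (first) and 42.4 CPM (second) in untreated and 1.95 (first) and 62.5 CPM (second) in LPS-treated Ing4 KO libraries. It split Socs1 KO in the same direction, at 0.39 (first) and 3.93 CPM (second) untreated and 0.122 (first) and 15.1 CPM (second) after LPS. Cd207, the Langerhans cell lectin langerin, had 1.18 (first) and 59.5 CPM (second) in untreated and 9.03 (first) and 139 CPM (second) in LPS-treated Ing4 KO libraries. In Socs1 KO it parted the other way, at 4.98 (first) and 0.945 CPM (second) untreated and 9.37 (first) and 1.18 CPM (second) after LPS. None of these genes was called. The second Ing4 KO libraries also had a mitochondrial share of 2.11% and 2.09% of counts, against 0.548% to 1.08% in the 10 other libraries of the series, and its part in these values was not tested.

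**Figure D5:**
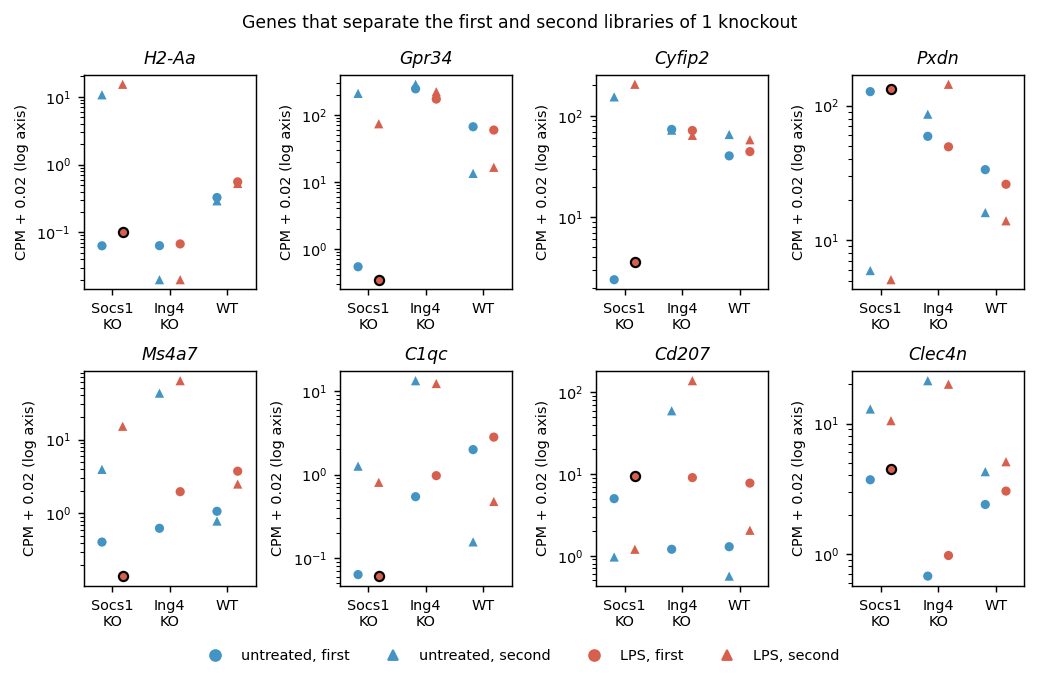
CPM by library on a log axis (0.02 CPM added) for 8 genes that separate the libraries of 1 knockout; circles are first and triangles second libraries, blue untreated and red LPS-treated, and the first LPS-treated Socs1 KO library is ringed. Genes of the upper row were chosen for a split of circles and triangles in Socs1 KO, those of the lower row for a split in Ing4 KO. In that genotype they part in the same direction in both treatments because the genes were chosen for that. Genes of the lower row also part in Socs1 KO, Cd207 in the opposite direction.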

How the data were processed

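RNA of RAW264.7 cells was sequenced from poly(A)-selected stranded libraries as single-end reads of 75 bases, per the labels' protocols. The deposited values are raw read counts per gene for 54232 gene IDs in 12 libraries. FastQC, HISAT, StringTie, HTSeq and DESeq2 are named without versions in the submitters' processing notes. Those notes also name a human genome build and the protocol a human line, yet 94.83% of the 1084 genes that the authors' deposited tables place lie exactly where mouse GRCm38 has them (GENCODE M21), the build of the coordinates given. Library totals were 17250815 to 24377950 counts, so 3 counts correspond to 0.123 to 0.174 CPM, and counting intervals and floors cover counting error only.

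Counts were filtered with filterByExpr and given TMM factors, and 12503 genes were tested with edgeR 4.0.16 (robust quasi-likelihood F-test, R 4.3.3) on the 8 knockout libraries. The model held treatment and genotype for both treatments together, and 4 group means for untreated, LPS-treated and the difference of LPS responses. Genes were called at a Benjamini-Hochberg adjusted p of 0.05, the adjustment taking in every gene tested. The SE of a log2 change was its size divided by the square root of F. Alternatives used limma 3.58.1, DESeq2 1.42.0, other scalings, filters and thresholds, and left-out libraries. The procedure was tested on simulated counts of independent libraries with less spread than these. They held no link between same-numbered libraries and no library that stood apart, so that test does not bear on the calls made here. Tables and figures were made with Python 3.11.15, pandas 2.3.3 and matplotlib 3.10.9.

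The comparison, the gene lists and the tests were chosen with earlier results of these data known. Genes were named if targeted, if called over both treatments with non-overlapping knockouts in each treatment and 2 CPM or more on average in whichever knockout was higher (up to 15 each way by size, and up to 6 each way in each other comparison), if among up to 4 called members of a list, or as anchors of the LPS response, 1 of which is not reported here. Pdcd6, H2-Aa, the C1q genes and other genes outside this rule were named after their values were seen. Replicate numbers pair libraries within a genotype across treatments (correlation of deviations 0.573 in Socs1 KO and 0.617 in Ing4 KO) but not between the knockouts (-0.13 to -0.0366).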

Additional observations from a re-analysis of the deposited data

How the results depend on the processing

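Over both treatments the 40 calls became 156 without a filter, 229 with DESeq2 (all 40 among them), 16 at a mean of at least 5 CPM, 7 at an adjusted p of 0.01, 20 with group means averaged over treatments, 11 with the random effect and 2 with treatments summed. The untreated count of 4 became 303 without a filter, 65 with DESeq2 and 1 at an adjusted p of 0.01, and the LPS-treated count of 4 became 623, 71 and 1 under the same settings, 11 in a fit to all 12 libraries and 0 in a fit to the 4 LPS-treated libraries alone. The difference of LPS responses gave 48 calls without a filter. Leaving out 1 library at a time gave 8 to 52 calls over both treatments, 0 to 6 untreated, 0 to 589 LPS-treated and 0 to 48 for the difference of responses. The causes were not tested.

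With a replicate block the counts were 54 over both treatments (34 of the 40 among them), 2 untreated, 2 LPS-treated and 0 for the difference of responses. The numbers do not pair the knockouts, since their deviations correlated at -0.13 to -0.0366. In 2 fits chosen after seeing the data and made without the first LPS-treated Socs1 KO library, a fit to the other 11 libraries gave 61 calls over both treatments, 22 untreated and 9 LPS-treated, and the random effect gave 17, of which 12 were among the 40.

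Of single values under the alternatives listed with the design, 588 were unchanged. That means a gene on its side of the threshold, or a list or chromosome median shifted by less than its spread within groups. Medians have no p-value, and a small one can turn sign within that spread. A further 225 gene values kept direction without passing the threshold, and 4 medians moved, that of MHC class II genes to 0.444. No called gene taken by the naming rule changed sign, and the other called genes were not in this check. Sign changed in 26 values of genes that were not called, in 9 list medians and in 15 chromosome medians. Leaving out 1 library at a time gave log2 changes of -0.184 to 0.717 for Ing4, -1.28 to 0.326 for Irf7, -1.614 to 0.071 for Isg15, -0.152 to 0.636 for Cxcl10, -0.748 to 0.338 for Tnf and -2.341 to 0.933 for Il1b. With limma-voom, Cxcl10 was at -0.208, Tnf at -0.189 and Il1b at -1.237, and with the random effect at -0.683, -0.195 and -1.499. With the replicate block Tnf was at -0.134 and Il1b at -0.799, and with treatments summed Cxcl10 was at -0.337 and Il1b at -0.154. Of the alternatives chosen after seeing the data, the fit to 11 libraries gave -0.398 for Ing4, 0.366 for Irf7 and 0.069 for Isg15, and the random effect without the first LPS-treated Socs1 KO library 0.154 for Irf7 and 0.208 for Isg15. The causes of these changes were not tested. With 2 libraries a group, the spread within groups limits what can be called, and a replicate number shared across treatments leaves fewer independent samples than libraries.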
